A study of Rattus norvegicus with 15 samples.

Results

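Peripheral blood DNA of diabetic rats given a Chinese herbal formula other than the one the study is named for was compared with that of diabetic rats left without a treatment. The comparison rests on 6 of the 15 arrays of the series, chosen by their titles: 3 arrays of the other formula and 3 of the DR model, the study's model of diabetic retinopathy. All rats were male Sprague Dawley rats, bought at 8 weeks of age and labelled 20 weeks old, and each array stands for 1 biological replicate. The rats of both groups belong to the DR model, which the labels describe as an intravenous injection of 45 mg/kg streptozotocin in citrate buffer, with diabetes declared from 72 h later at a blood glucose over 13.9 mmol/L. The DR model rats then received distilled water by gavage. For the other formula the labels state neither its name, its herbs, its dose nor its route, and they do not say whether insulin was given with it, as it was to the 2 other treated groups at 1.5 IU a day. Controls received citrate buffer in place of streptozotocin, CaD rats received calcium dobesilate at 0.25 g/kg a day, and LTF rats received Luo-tong formula at 2 g/kg a day. These 9 arrays entered only to estimate the spread between arrays and, where named, for their levels. The tissue is peripheral blood taken after a fast. The mix of white cells was not measured, so a shift in that mix and a change within a cell type cannot be told apart. The comparison asks in which regions the blood DNA of treated model rats differed from that of untreated ones.

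Streptozotocin is taken up by the insulin-producing beta cells of the pancreas and kills them, which leaves the animal with lasting high blood glucose. In diabetic retinopathy the small vessels of the retina are damaged under such glucose levels. DNA methylation, the addition of a methyl group to cytosine, occurs in mammals mostly where cytosine is followed by guanine, and methylation of a promoter usually goes with a silent gene. In methylated DNA immunoprecipitation (MeDIP) an antibody against methylated cytosine pulls fragments out of sheared DNA. Here the recovered DNA carried Cy5, the untreated input DNA carried Cy3, and both were hybridised to the same tiling array. The quantity reported is the log2 ratio of the MeDIP to the input signal, with the median of each array set to 0. A ratio depends on the methylation, on the number of cytosines in the fragment and on how the probe hybridises, so groups are compared at the same probes. The files place probes on the rn4 assembly of the rat genome without gene names or probe sequences, so positions are given, no gene is named, and the tissue could not be checked against marker genes.

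On the 6 arrays 77.6% to 89.7% of MeDIP spots and 93.1% to 96.0% of input spots stood well above background, and the number of arrays limits the precision. The groups differed in how uniform their arrays were. Of 172669 probes, 171421 fell into 16782 regions, over which their log2 ratios were averaged. Regions are runs of neighbouring probes with gaps of at most 500 bp and at least 3 probes (median 10 probes and 1655 bp). Over these regions the 3 other formula arrays correlated with each other at 0.973 to 0.978, and the 3 DR model arrays at 0.942 to 0.966. The median region had a standard deviation of 0.0662 among other formula arrays and 0.118 among DR model arrays. DR model replicate 3 correlated with the other formula arrays at 0.967 to 0.974, above its correlations of 0.966 and 0.953 with DR model replicates 1 and 2. Its interquartile range over probes, 1.22, also lay within the 1.20 to 1.30 of the other formula arrays, while DR model replicates 1 and 2 stood at 1.60 and 1.52. All 3 other formula arrays shared scan 3 with CaD replicate 3, and the DR model arrays lay in scans 5, 1 and 6, so no scan held both groups. Formula and scan therefore cannot be told apart within a scan. The interquartile range was 1.47 and 1.55 on control replicates 2 and 3, which shared scan 5 with DR model replicate 1. It was 1.22 and 1.23 on CaD replicates 1 and 2, which shared scan 6 with DR model replicate 3. CaD replicate 3, in scan 3, had 1.28. Whether this range goes with the scan or with the group was not tested. Scan day 1 held the other formula arrays and DR model replicate 2, and differences within that day are given below beside the main ones.

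At an adjusted p of 0.05 in limma, 0 of 16782 regions were called (0%; the smallest adjusted p was 0.103), and 2535 regions, or 15.1%, had an unadjusted p under 0.05. Among these, 707 regions (4.21% of all regions) had a higher ratio with the other formula and 1828 (10.9%) a lower one. The arrays of both groups did not overlap in 3119 regions, or 18.6%. The other formula lay above the DR model in 935 of them (5.57% of all regions) and below it in 2184 (13.0%). Differences were small: 5% of regions lay below -0.23 and 5% above 0.20 on the log2 scale. The median difference was -0.019, against a median standard error of 0.0850. The fit behind this and the later standard errors did not include scan, so it took arrays of the same scan as independent. The excess of lower over higher regions shrank or turned under some settings and not under others. Of the regions with an unadjusted p under 0.05 in limma, 27.9% were higher as reported, 46.2% after quantile normalization between arrays, 53.2% in the authors' deposited table and 63.1% after normexp background correction. The share was 23.4% with scaling to the same interquartile range, 26.3% with loess within arrays and 30.3% with centring within each probe length.

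The direction of the difference followed probe length. The array holds probes of 45 to 60 nucleotides, tiling designs commonly using longer probes where the sequence is poor in guanine and cytosine. Of all probes, 64.8% had 45 to 49 nucleotides (111820 probes), 12.9% had 50 to 54, 8.65% had 55 to 59 and 13.7% had 60. In the shortest class the mean log2 ratio was 0.23, 0.25 and 0.21 on DR model arrays 1 to 3 and 0.19, 0.17 and 0.18 on other formula arrays 1 to 3. All other formula arrays thus lay below all DR model arrays, by -0.053 on average, where the exact two-sided permutation test gave p = 0.1, the smallest that 3 arrays against 3 allow, and p = 0.4 after adjustment over the 4 classes. This difference was -0.0232 with scaling to the same interquartile range, -0.0139 with centring within each probe length and -0.000249 after quantile normalization, and its sign turned with normexp background correction (0.010) and in the authors' deposited table (0.00913).

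In the longer classes the order of the group means turned. Probes of 50 to 54 nucleotides averaged -0.51, -0.51 and -0.37 on the DR model arrays and -0.45, -0.40 and -0.41 on the other formula arrays. Those of 55 to 59 nucleotides averaged -0.79, -0.78 and -0.59 against -0.69, -0.63 and -0.64. At 60 nucleotides the DR model arrays stood at -1.11, -1.13 and -0.95 and the other formula arrays at -1.04, -0.98 and -1.0, a difference of 0.054. In each of these 3 classes the groups overlapped, because DR model replicate 3 lay above every other formula array while DR model replicates 1 and 2 lay below every one (exact two-sided permutation p = 0.4 in each class). Without DR model replicate 3 the differences were 0.090, 0.13 and 0.11. The distance between the longest and the shortest class was narrower with the other formula, at -1.23, -1.15 and -1.18, than on DR model replicates 1 and 2, at -1.34 and -1.38. DR model replicate 3, at -1.16, lay among the other formula arrays, and the difference of 0.107 had an exact two-sided permutation p = 0.3. CaD replicate 3, which shared scan 3 with the other formula arrays, stood at -1.18. Within scan day 1, against DR model replicate 2 alone, the 4 classes differed by -0.074, 0.090, 0.13 and 0.12 in order of length.

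**Figure D1:**
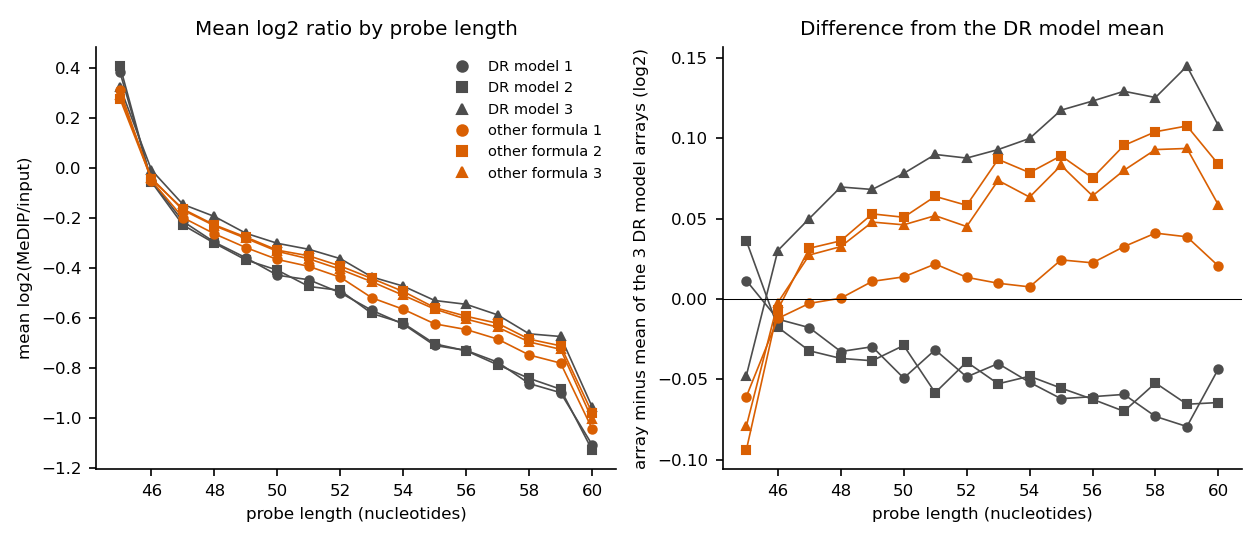
Mean log2(MeDIP/input) of all probes of a given length on each of the 6 arrays (left), and the same values minus the mean of the 3 DR model arrays (right), against probe length in nucleotides. At 45 nucleotides the other formula arrays (0.28 to 0.31) lie below the DR model arrays (0.32 to 0.41); from 47 nucleotides on they lie between DR model replicate 3 above and replicates 1 and 2 below, an order that turned in part under other scalings (at 60 nucleotides the difference was -0.036 after quantile normalization).

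Probe length by probe length, the change of sign came early. Probes of exactly 45 nucleotides, 84007 in number, averaged 0.38, 0.41 and 0.32 in the DR model and 0.31, 0.28 and 0.29 with the other formula, a difference of -0.078 with no overlap. At 46 nucleotides the difference was -0.0070 and at 47 nucleotides 0.019, both with overlapping groups, and it reached its largest value, 0.080, at 59 nucleotides. Regions gave the same picture when sorted by the median length of their probes. Of 12785 regions in the shortest class 5.26% were higher and 15.4% lower without overlap, against the 5.57% and 13.0% of all regions. Of 810 regions in the class of 60 nucleotides 7.04% were higher and 4.07% lower. The median difference of a region went from -0.035 in the shortest class to 0.019, 0.057 and 0.048 in the longer ones.

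The difference also followed the level of the ratio itself. When regions were sorted by their mean over all arrays into 5 equally filled bins, the typical (median) difference went from 0.061 in the lowest bin through 0.026, -0.012 and -0.044 to -0.117 in the highest. The lowest bin held 201 regions higher and 89 lower without overlap, while 34 were higher and 869 lower in the highest bin. On this scale regions of high ratio were lower with the other formula, and regions of low ratio higher. Without DR model replicate 3 the lowest and highest bins differed by 0.131 and -0.163, and within scan day 1 by 0.125 and -0.183. The lowest bin had a median probe length of 54 nucleotides and the 3 highest bins one of 45. After centring within each probe length the order remained, from 0.018 through 0.014, -0.004 and -0.026 to -0.096, and with normexp background correction it ran from 0.032 to -0.029. After quantile normalization, which gives every array the same distribution, the bins ran from -0.026 to 0.007 with no such order, and in the authors' deposited table from -0.008 to 0.013. With scaling to the same interquartile range the lowest bin had the lowest value, -0.077, and the others lay between -0.030 and -0.013.

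Chromosome means differed little. Over all probes, 4 of 21 chromosomes had all other formula arrays below all DR model arrays and none had them above, and the groups overlapped on the remaining 17. The 4 were chromosomes 5, 12, 16 and 18. On chromosome 12 the DR model arrays averaged 0.124, 0.171 and 0.130 and the other formula arrays 0.118, 0.093 and 0.091, a difference of -0.041 that was the largest of any chromosome. Its other formula arrays lay below its DR model arrays by a gap smaller than the spread within either group. On chromosome 5 the other formula arrays stood at -0.068, -0.067 and -0.066, below -0.059, -0.044 and -0.028 in the DR model. Each of these 4 had an exact two-sided permutation p = 0.1 and p = 0.382 after adjustment over the chromosomes. Chromosome 12 also had the smallest share of probes of 60 nucleotides, 5.80%, and chromosome 19, at -0.028 with overlapping groups, the next smallest at 6.01%. Across the 21 chromosomes, which share arrays and centring, the difference and the share of 60-nucleotide probes correlated at 0.776.

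Within a single probe length the chromosomes were alike. Probes of 45 nucleotides had a lower mean with the other formula on all 21 chromosomes, by -0.066 on chromosome 1 to -0.10 on chromosome 17, and probes of 60 nucleotides a higher mean on all 21, by 0.019 on the X chromosome to 0.10 on chromosome 19. The 60-nucleotide differences changed sign over all probes with scaling to the same interquartile range (-0.0967), with centring within each probe length (-0.023), after quantile normalization (-0.036) and in the authors' deposited table (-0.028).

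**Figure D2:**
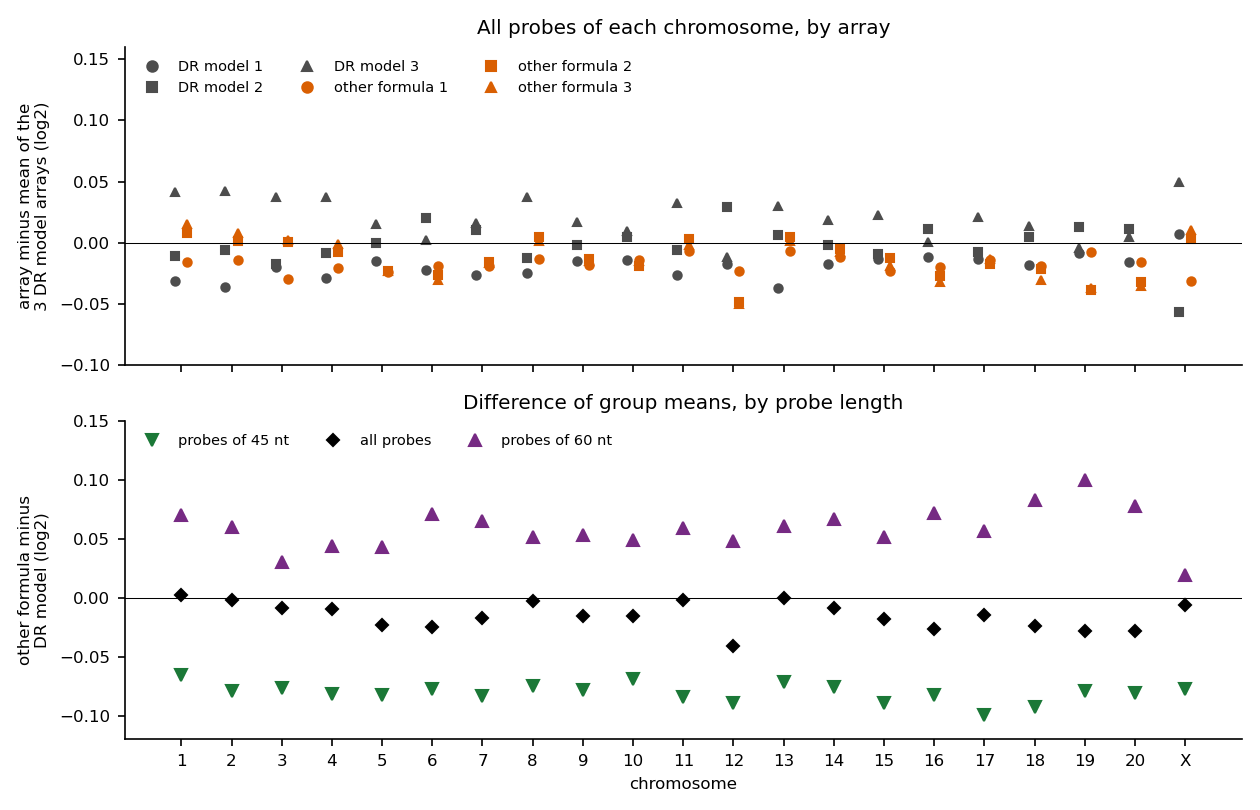
Mean log2(MeDIP/input) of each chromosome on the 6 arrays, minus the mean of the 3 DR model arrays (top), and the difference of the group means for all probes, probes of 45 nucleotides and probes of 60 nucleotides (bottom). All-probe differences lie between -0.041 and 0.0023, those of 45-nucleotide probes lie below 0 on every chromosome and those of 60-nucleotide probes above it (at 60 nucleotides the sign over all probes turned after quantile normalization); unplaced sequence is left out.

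The X chromosome, which male animals carry in 1 copy, was compared with the autosomes. Probes on the X chromosome differed from autosomal probes by -0.17, -0.26 and -0.18 on DR model arrays 1 to 3 and -0.22, -0.19 and -0.18 on other formula arrays 1 to 3. The groups overlapped, and the difference of 0.0060 had an exact two-sided permutation p = 1; its sign turned with the scaling and with the array left out. Over probes of 45 nucleotides the 6 arrays lay close together, from -0.050 to -0.042, with a difference of 0.00049 between the groups. Over probes of 60 nucleotides they were scattered more widely. The DR model arrays gave 0.21, 0.016 and 0.11 and the other formula arrays 0.058, 0.068 and 0.097, a difference of -0.038 with overlapping groups. The X chromosome has the largest share of 60-nucleotide probes, 24.3%.

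The regions that separated the groups best were looked at by array, the 12 higher and 12 lower ones with the smallest p. All had an adjusted p of 0.103 in limma and so did not pass. The 12 higher regions differed by 0.27 to 0.55 and lay on 8 chromosomes, and the 12 lower ones by -0.71 to -0.30 on 9, unplaced sequence counted as one. Within scan day 1, against DR model replicate 2 alone, the 12 higher regions differed by 0.25 to 0.67 and the 12 lower ones by -0.91 to -0.33. Their direction was fixed by the choice, which required every other formula array to lie apart from every DR model array, replicate 2 included. The lower regions had means over all arrays from -0.05 to 1.11, and 10 of the 12 had probes of mostly 45 to 49 nucleotides. The higher regions had means from -0.99 to 0.40, and 8 of them were of that length class.

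**Figure D3:**
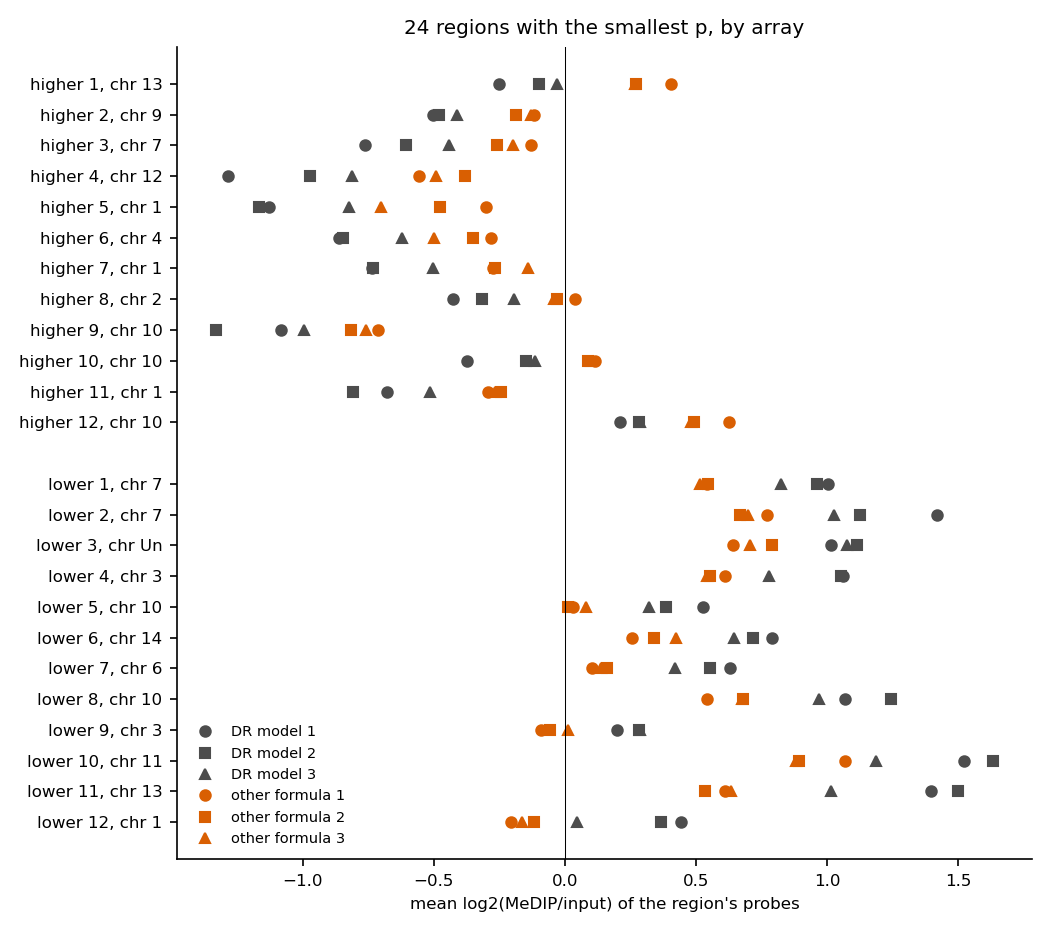
Mean log2(MeDIP/input) of the probes of a region on each of the 6 arrays, for the 12 higher and 12 lower regions with the smallest p among those whose groups do not overlap, labelled with their chromosome. The regions were chosen for this separation; DR model replicate 3 (dark triangle) is the DR model array closest to the other formula arrays in all 12 higher and in 10 of the 12 lower ones.

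Among regions with a higher ratio, chromosome 7 from 31125793 to 31127308 had 9 probes, 5 of them of 60 nucleotides. The DR model arrays gave -0.76, -0.61 and -0.44 and the other formula arrays -0.13, -0.26 and -0.20. The other formula arrays were higher with no overlap, by 0.41 ± 0.08 (SE). All 9 probes had a higher mean with the other formula, 4 of them without overlap. In 3 of these 4 the highest DR model and lowest other formula values nearly met (-0.29 and -0.28, -0.72 and -0.71, 0.33 and 0.37). Some probes had 1 low DR model value. Examples were -1.47 on replicate 2 (others 0.66 and 0.62) and -2.33 on replicate 1 (others -1.08 and -0.97). Without its most different probe the region differed by 0.37. Under the alternatives its difference ran from 0.08 with normexp background correction to 0.49. Controls averaged -0.41 ± 0.085 (SD, n = 3), between both groups, as did LTF rats at -0.37 ± 0.04 (SD, n = 3). CaD rats, at -0.22 ± 0.08 (SD, n = 3), lay with the other formula. On chromosome 12 from 20076362 to 20076997 the DR model arrays stood at -1.29, -0.97 and -0.81 and the other formula arrays at -0.56, -0.38 and -0.49. The groups were again apart, by 0.55 ± 0.11 (SE), with 3 of 4 probes apart on their own. Controls, at -1.11 ± 0.18 (SD, n = 3), lay with the DR model. CaD rats, at -0.42 ± 0.09, and LTF rats, at -0.35 ± 0.04 (SD, n = 3), lay near the other formula. On chromosome 1 from 164180391 to 164181229 the values were -1.13, -1.17 and -0.82 against -0.30, -0.48 and -0.70. The highest DR model array and the lowest other formula array were separated by little in this region, and 1 of its 5 probes separated the groups. Controls averaged -0.73 ± 0.09, CaD rats -0.38 ± 0.13 and LTF rats -0.55 ± 0.13 (SD, n = 3).

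On chromosome 2 from 140739974 to 140741756, a region of 11 probes, the DR model arrays gave -0.43, -0.32 and -0.20 and the other formula arrays 0.04, -0.03 and -0.04. The difference of 0.30 ± 0.07 (SE) showed in 10 of 11 probes, 4 of which were apart. Here controls, at -0.07 ± 0.06 (SD, n = 3), CaD rats, at -0.04 ± 0.03 (SD, n = 3), and LTF rats, at -0.08 ± 0.06 (SD, n = 3), stood close to the other formula, and the DR model was the group that lay apart.

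The lower regions were carried by more of their probes. On chromosome 7 from 121620511 to 121621040 the DR model arrays stood at 1.42, 1.13 and 1.03 and the other formula arrays at 0.77, 0.67 and 0.70, which put the groups -0.48 ± 0.08 (SE) apart. The other formula arrays were lower throughout, and 3 of the 4 probes separated the groups. Controls and LTF rats, at 0.99 ± 0.07 and 0.96 ± 0.07 (SD, n = 3), lay between both groups. CaD rats, at 0.75 ± 0.015 (SD, n = 3), lay with the other formula. On chromosome 13 from 32177444 to 32177894 the values were 1.39, 1.50 and 1.01 against 0.61, 0.53 and 0.63. All 3 probes of that region separated the groups, and its difference of -0.71 ± 0.14 (SE) was the largest among the 12 lower regions. In the MeDIP channel taken alone it was -0.33 and in the input channel 0.38, so the input signal moved as much as the MeDIP signal.

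On chromosome 14 from 3441240 to 3442934, with 10 probes, the DR model arrays gave 0.79, 0.71 and 0.64 and the other formula arrays 0.26, 0.34 and 0.42. The groups lay apart by -0.38 ± 0.07 (SE), with 6 of 10 probes apart. Controls averaged 0.59 ± 0.09, CaD rats 0.38 ± 0.05 and LTF rats 0.36 ± 0.07 (SD, n = 3). On unplaced sequence (chromosome Un from 25164053 to 25165834) the values were 1.02, 1.11 and 1.07 against 0.64, 0.79 and 0.70. All 8 of its probes measured on the 6 arrays were lower with the other formula, 5 of them without overlap. Controls averaged 0.87 ± 0.08, CaD rats 0.71 ± 0.05 and LTF rats 0.70 ± 0.06 (SD, n = 3). On chromosome 11 from 32282769 to 32283498 the values were 1.52, 1.63 and 1.19 against 1.07, 0.89 and 0.88. Controls, at 1.39 ± 0.092 (SD, n = 3), lay with the DR model there, and CaD and LTF rats, at 0.94 ± 0.072 (SD, n = 3) and 0.83 ± 0.082 (SD, n = 3), with the other formula.

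Over all 12 lower regions, 60 of 65 probes measured on the 6 arrays had a lower mean with the other formula and 39 separated the groups in that direction. Over the 12 higher regions, 64 of 77 probes had a higher mean and 23 separated the groups upward. Among all 163272 probes measured on the 6 arrays, 7.38% were higher and 14.4% lower without overlap. These regions were chosen for their difference, so the counts describe how it spread over the probes. The change in the MeDIP channel was larger than that in the input channel in 12 of the 12 higher and 10 of the 12 lower regions. The clearest exception lay on chromosome 10 from 28570700 to 28571444, at 1.07, 1.24 and 0.97 in the DR model and 0.54, 0.68 and 0.67 with the other formula. Its ratio was lower by -0.46, but the MeDIP signal was higher with the other formula by 0.65 and the input signal by 1.12.

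In some of the leading regions 1 probe carried a large part of the difference. The higher region with the smallest p, on chromosome 13 from 80016481 to 80017144, stood at -0.25, -0.10 and -0.03 in the DR model and at 0.40, 0.27 and 0.27 with the other formula. Of its 3 probes, a 56-nucleotide probe gave -2.00, -1.54 and -1.30 against -0.25, -0.51 and -0.71, and without it the difference of the region went from 0.44 to 0.10. This was also the only region called after quantile normalization (0.48 ± 0.07, SE, adjusted p = 0.0292 in limma). Controls averaged 0.06 ± 0.008 (SD, n = 3) there as reported. CaD and LTF rats, at 0.30 ± 0.08 and 0.26 ± 0.085 (SD, n = 3), lay with the other formula. On chromosome 7 from 139197599 to 139198573, the lower region with the smallest p, the DR model arrays gave 1.00, 0.96 and 0.83 and the other formula arrays 0.54, 0.54 and 0.51. Its single most different probe gave 1.63, 1.16 and 1.35 against 0.09, 0.44 and -0.08, and without that probe the difference went from -0.40 to -0.23. More than 1 probe carried it, since all 6 were lower with the other formula and 3 separated the groups. Controls averaged 0.78 ± 0.05 (SD, n = 3) in this region. CaD and LTF rats, at 0.55 ± 0.04 and 0.53 ± 0.10 (SD, n = 3), lay with the other formula. Over probes measured on all 6 arrays, leaving out the most different one brought the difference under 50% of its size in 3 of the 12 higher and 1 of the 12 lower regions. The median of what remained was 0.21 over the 12 higher and -0.34 over the 12 lower regions.

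**Figure D4:**
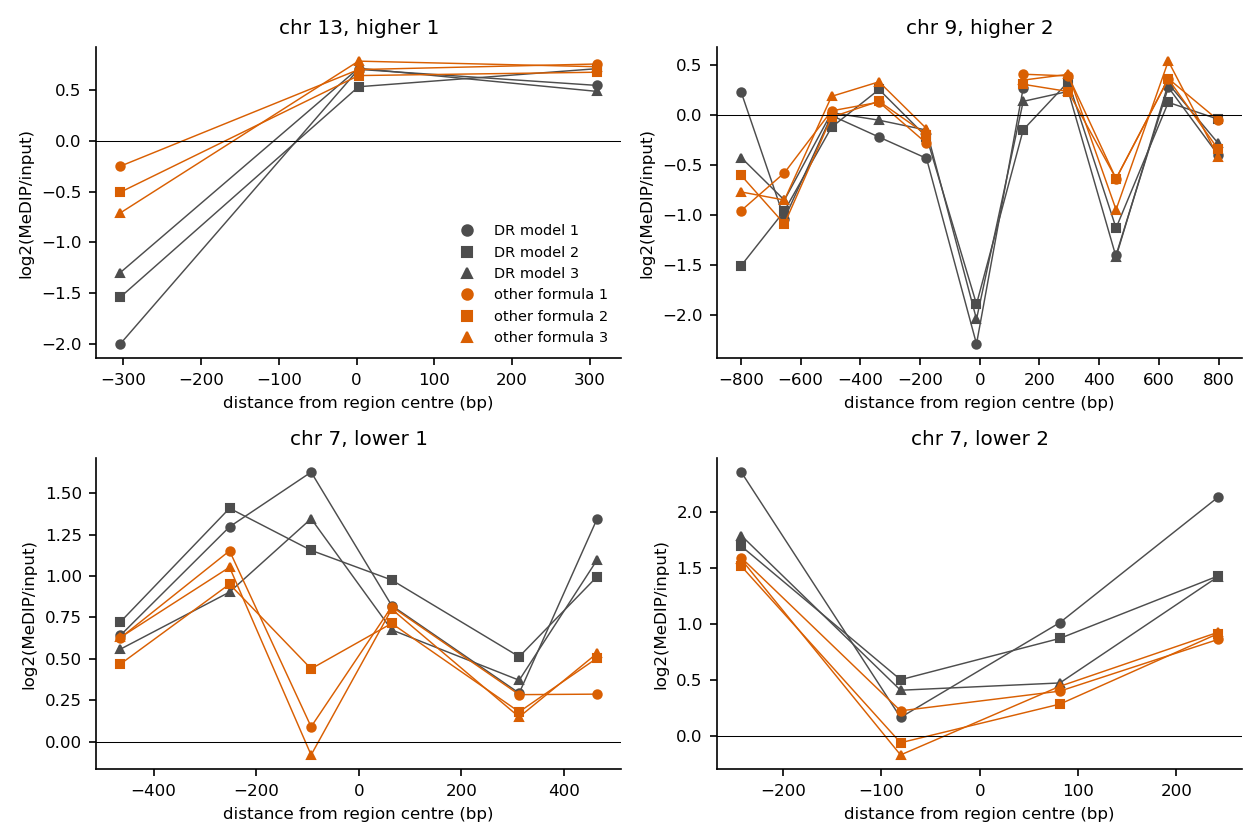
Log2(MeDIP/input) of each probe of 4 regions on the 6 arrays, against the distance of the probe from the centre of the region in base pairs, for the 2 higher and 2 lower regions with the smallest p. The chromosome 13 region differs mainly at 1 probe (DR model -2.00 to -1.30, other formula -0.71 to -0.25), the chromosome 9 region holds a low probe near its centre that has no value on any other formula array, the first chromosome 7 region differs mainly at 2 probes, and the second has a lower mean with the other formula at every probe.

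Spots left out as outliers entered some of the higher regions. They numbered 3359 to 3645 on the other formula arrays and 235 to 4540 on the DR model arrays. Of all probes, 9397 (5.44%) lacked a value on at least 1 of the 6 arrays. A value was missing from all 3 other formula arrays and from no DR model array at 1635 probes, and the reverse held at 22 probes. Of these 1635 probes, 1448 (88.6%) were also missing on CaD replicate 3, which shared scan 3 with the other formula, but 9 and 28 on CaD replicates 1 and 2, which did not. The part of the scan in this was not tested further. In the higher region on chromosome 9 from 74676248 to 74677893 the DR model arrays gave -0.50, -0.48 and -0.41 and the other formula arrays -0.12, -0.19 and -0.13. One of its 11 probes stood at -2.29, -1.90 and -2.05 in the DR model and had no value with the other formula. Over the 9 probes measured on all 6 arrays the difference went from 0.32 to 0.14.

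A missing probe occurred in 40.3% of all regions, in 51.2% of the 935 regions that were higher without overlap and in 33.4% of the 2184 that were lower. When only probes measured on all 6 arrays were averaged, 678 of the 935 higher regions (72.5%) and 2075 of the 2184 lower ones (95%) were still apart in the same direction. The totals were then 751 higher regions (4.48%) and 2470 lower ones (14.7%). Of the 12 leading higher regions 6 held a missing probe, and of the 12 lower ones 2.

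The largest differences in each length class of regions were next. In the class of 45 to 49 nucleotides the largest was on chromosome 14 from 103656593 to 103657888, where the DR model arrays gave 1.85, 1.80 and 1.32 and the other formula arrays 1.20, 0.76 and 0.59. All 9 of its probes were lower with the other formula and 5 separated the groups, and the regional means were -0.80 ± 0.16 (SE) apart. Controls, at 1.63 ± 0.31 (SD, n = 3), lay with the DR model, and CaD rats, at 0.75 ± 0.10 (SD, n = 3), and LTF rats, at 0.84 ± 0.026 (SD, n = 3), with the other formula. The next, on chromosome 1 from 212876772 to 212877124, had 1.37, 0.58 and 0.58 against -0.03, 0.08 and 0.11. There DR model replicate 1 lay far above the other DR model arrays, and the input signal was higher by 1.05 with the other formula while the MeDIP signal was higher by 0.26.

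In the class of 50 to 54 nucleotides the largest difference of all regions, -1.19, lay on the X chromosome from 154193551 to 154194048. Its means were -0.57, -0.64 and -0.89 in the DR model and -1.43, -2.15 and -2.10 with the other formula, but only 1 of its 3 probes had a value on all 6 arrays. That probe gave -1.40, -1.41 and -1.0 in the DR model and -1.42, -1.50 and -1.60 with the other formula, a difference of -0.23. A probe at 0.26, 0.47 and 0.36 in the DR model had no value on any other formula array, so most of the regional difference came from which probes were averaged. A second region of this class, on the X chromosome from 48658504 to 48658875, had 0.18, 0.77 and 0.83 against 1.46, 1.22 and 0.89. The lowest other formula array exceeded the highest DR model array by little there, and 2 of its 3 probes had a value on all 6 arrays.

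In the class of 55 to 59 nucleotides the region on chromosome 2 from 102650988 to 102652207 stood at -2.01, -1.07 and -0.99 in the DR model and -0.80, -0.84 and -0.69 with the other formula. The difference of 0.58 rested on DR model replicate 1, and within scan day 1 it was 0.29. The region on chromosome 1 from 164180391 described above was the other of that class. In the class of 60 nucleotides, a region on the X chromosome from 93150621 to 93151015 gave -2.04, -1.72 and -1.38 against -0.69, -1.15 and -1.14. All 3 of its probes were higher with the other formula and none separated the groups on its own, and the regional means differed by 0.72 ± 0.17 (SE). On chromosome 13 from 72535103 to 72535478 the values were -1.72, -1.68 and -1.23 against -0.96, -0.85 and -1.14. That difference of 0.56 had the opposite sign after normexp background correction (-0.020) and in the authors' deposited table (-0.022).

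On each chromosome the region with the smallest p among those without overlap was also taken. On 18 of the 21 chromosomes it had a lower ratio with the other formula, and on chromosomes 9, 12 and 13 a higher one. The smallest adjusted p among them in limma was again 0.103. On chromosome 16 from 19107939 to 19108767 the DR model arrays gave 0.71, 0.82 and 0.40 and the other formula arrays 0.17, 0.14 and 0.27, with all 6 probes lower and 3 of them apart. On chromosome 4 from 161044983 to 161046411 the values were 0.87, 0.91 and 0.82 against 0.49, 0.49 and 0.56. Both groups were narrow in that region, and 5 of its 6 probes measured on all arrays were apart. On chromosome 5 from 153459290 to 153461053 the values were 0.67, 0.67 and 0.52 against 0.25, 0.30 and 0.36, and all 10 probes were lower with the other formula, 5 of them apart. On chromosome 17 from 71824655 to 71825988, in contrast, the difference of -0.36 went to -0.10 without the most different of 7 probes.

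Runs of neighbouring probes that each separated the groups in the same direction were longer downward than upward. A run of at least 5 such probes occurred once upward and 22 times downward, and the longest held 5 probes upward and 6 downward. Single probes, from which the runs are built, were apart downward in 14.4% and upward in 7.38% of cases. The 6 runs of 6 probes were all lower with the other formula. On chromosome 7 from 119736762 to 119738120 their mean was 0.76, 1.24 and 0.59 in the DR model and 0.26, 0.22 and 0.22 with the other formula. The other formula arrays were tightly grouped and the DR model arrays were not, and single probes differed by 0.288 to 1.08 in size around a mean of -0.63. On chromosome 6 from 134407833 to 134408674 the values were 1.75, 1.73 and 1.43 against 1.22, 1.1 and 1.11. This run was part of a region of 168 probes whose own difference was -0.025, so the run took up a small stretch of a region that otherwise differed little.

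On chromosome 19 from 52901604 to 52902538 the run gave 1.12, 1.29 and 0.99 against 0.80, 0.69 and 0.70. On chromosome 1 from 166660604 to 166661467 it gave 0.98, 1.01 and 0.83 against 0.54, 0.56 and 0.58. Both runs made up 6 of the 10 probes of their regions, and the groups were apart by -0.41 and -0.38. The remaining runs lay on chromosome 4. From 80458528 to 80459451 the values were 0.54, 0.62 and 0.43 against 0.28, 0.11 and 0.25, and from 27331890 to 27333064 they were 0.65, 0.73 and 0.70 against 0.47, 0.34 and 0.48. In 5 of the 6 runs DR model replicate 3 was the DR model array nearest to the other formula.

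Tested one by one, 42 of the 149550 probes with a value on all 15 arrays passed an adjusted p of 0.05 in limma (0.0281%), with 24279 (16.2%) at an unadjusted p under 0.05, of which 7328 (4.90% of those tested) were higher. The test of single probes was run with the main processing only and without scan in the fit, so its dependence on scaling and scan is not known. Of the 42 probes, 41 (0.0274%) were lower with the other formula and 1 (0.000669%) was higher. They lay in 42 different regions on 17 chromosomes, and 36 were of 45 to 49 nucleotides. The lower probes differed by -2.36 to -0.68, with a median of -1.02. The remaining probes of the same regions did not share differences of this size: their median difference per region was -0.08 in the median and ranged from -0.25 to 0.32. In 8 of the 42 regions no other probe separated the groups in the same direction, and in the rest another probe did. Of 163272 probes in all, 14.4% were lower and 7.38% higher without overlap. Whether the count of 8 departs from this background was not tested.

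The leading probe by p was on chromosome 2 from 213925937 to 213925981. It fell from 1.89, 1.53 and 1.98 in the DR model to -0.05, -0.06 and -0.15 with the other formula (adjusted p = 0.0106 in limma). Every other formula array was far below every DR model array, but the input signal was higher by 1.59 and the MeDIP signal lower by -0.30, so the ratio changed mostly through the input channel. On chromosome 7 from 116502778 to 116502824 the ratio fell from 1.05, 1.73 and 0.46 to -1.21, -1.18 and -1.31, with the input signal higher by 2.87 and the MeDIP signal by 0.55. A probe on chromosome 3 from 18309778 to 18309823 fell from 1.17, 1.21 and 0.94 to 0.06, 0.11 and 0.02. In that probe the MeDIP signal was lower by -1.54 and the input signal by -0.49. These probes were taken up after their values were seen. Over the 41 lower probes the MeDIP signal was lower by -0.85 and the input signal higher by 0.16 in the median. Among the 42, the input channel changed by more than the MeDIP channel in 11 and by more than 1 on the log2 scale in 7.

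The 41 lower probes also had lower medians in the other treated groups than in the DR model. The median of their group means was 1.50 in the DR model and 1.26 in controls, and 0.26 with the other formula, 0.27 in CaD rats and 0.36 in LTF rats. These probes were chosen for a high DR model or a low other formula level, and the control, CaD and LTF arrays entered that choice only through the spread.

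**Figure D5:**
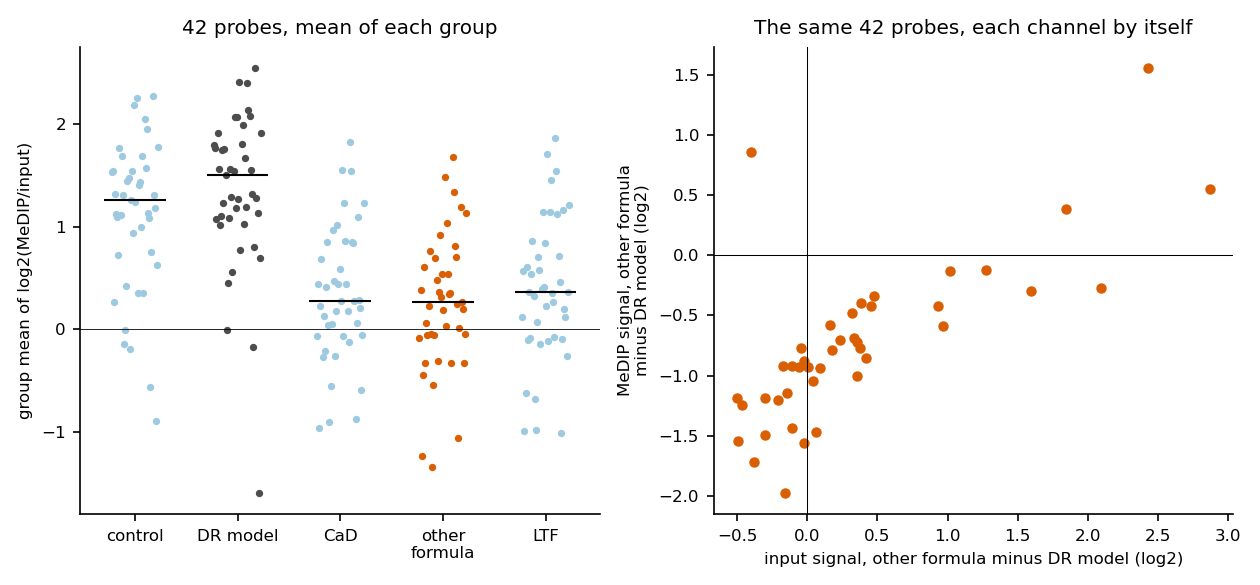
Left, mean log2(MeDIP/input) of each of 5 groups at the 42 probes that passed an adjusted p of 0.05 in limma, with 1 point per probe and a bar at the median over the 41 lower probes (DR model 1.50, control 1.26, CaD 0.27, other formula 0.26, LTF 0.36). Right, the difference between the other formula and the DR model in the MeDIP signal against that in the input signal at the same probes, both log2; most lie below 0 in the MeDIP signal, and 7 lie beyond 1 in the input signal.

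How many regions passed depended on DR model replicate 3. Without DR model replicate 3, 1134 regions were called at an adjusted p of 0.05 in limma, while leaving out any other of the 6 arrays gave 0. Within scan day 1 only DR model replicate 2 was left of its group. The count was 982 with the spread pooled over all arrays, assuming that this array varied like the others. With scan as a random block it was 0, with 1256 regions at an unadjusted p under 0.05. The smallest adjusted p in limma was then 0.585, against 0.103 as reported. In that fit arrays of the same scan had a consensus correlation of 0.39.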

How the data were processed

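Per the labels, MeDIP DNA (Cy5) and input DNA (Cy3) of 15 rats in 5 groups of 3 were hybridised to 2-colour Agilent arrays. The deposited scanner files (Feature Extraction 11.0.1.1, positions on rn4, per the file headers) hold intensity values per spot: processed signals, which are background-subtracted and dye-normalised per the file headers, and median signals with their background. A log10 ratio of both channels per spot is deposited beside these signals and was not used for results. Values of the authors' deposited table were read as log2; this is assumed, its scale being not given in the sources used here. Its columns correlated with the scanner values of the same arrays at 0.846 to 0.886 and had medians of 0.01 to 0.05.

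Here log2 of Cy5 over Cy3 processed signal was taken for 172669 probes, without 6856 control spots and without outlier spots, and each array was centred on its median. Neighbouring probes were joined across gaps up to 500 bp, and 16782 runs of at least 3 probes with a value on every array were kept as regions. Region and probe values were fitted with limma 3.58.1 (R 4.3.3), fitting 5 group means to all 15 arrays, with Benjamini-Hochberg adjustment and a threshold of 0.05. Scan was not part of this fit. The fit was checked on simulated data. Length classes and chromosomes were tested by exact permutation over the 6 arrays. Arrays were grouped by title.

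Among regions whose groups did not overlap, those named were the 12 of smallest p in each direction, passed or not. Named as well were the 2 largest differences in each length class, the smallest p on each chromosome, and the 6 longest runs of separated probes, with ties broken by size. The members and lists were chosen with earlier results of these data known. Lists of genes and blood cell markers could not be applied without gene names. Replicate numbers did not pair the arrays: the deviations of same-numbered arrays from their group means correlated at 0.0672, -0.114 and 0.331 over regions.

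Alternatives covered quantile normalization, scaling to the same interquartile range, centring within each probe length, loess, normexp (on median spot signals, with an offset of 50, since mean spot signals were not used here), the authors' table, dim probes, outlier spots, region rules, scan, scan day, the replicate block and single arrays left out. The test of single probes was not repeated under them.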

Additional observations from a re-analysis of the deposited data

How the results depend on the processing

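No region passed in limma with loess, interquartile-range scaling, centring within probe length, dim probes left out, outlier spots kept, other region rules, scan or scan day as a block, or the 6 arrays alone. The count was 1 after quantile normalization, 15 after normexp, 105 in the authors' table, 2069 within scan day 1 (1 DR model array, with the spread of the tighter other formula group, so no test of the groups) and 0 to 1134 with 1 array left out, the highest without DR model replicate 3. With settings added after the data were seen it was 982 within scan day 1 with a pooled spread, 2 with the median over a region's probes and 0 with only probes measured on every array. The replicate block gave 0 regions, and 2341 at an unadjusted p under 0.05 in limma. Replicate numbers did not pair the arrays.

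The cause of the sign changes that follow was not tested. The difference of the 45 to 49 nucleotide class was 0.010 with normexp and 0.00913 in the authors' table. That of 60 nucleotides was -0.036 with quantile normalization and -0.028 in the authors' table. With interquartile-range scaling the classes of 50 to 54, 55 to 59 and 60 nucleotides differed by -0.022, -0.0351 and -0.0967, and with centring within probe length by -0.024, -0.031 and -0.023. The difference of the X chromosome from autosomes was -0.023 with quantile normalization, -0.023 with interquartile-range scaling, -0.018 with centring within probe length, -0.011 with loess, -0.015 with normexp, -0.026 in the authors' table and -0.022 to 0.021 with 1 array left out. The region on chromosome 13 from 72535103 to 72535478 had -0.020 with normexp and -0.022 in the authors' table, and that on chromosome 2 from 102650988 to 102652207 had -0.23 with scan as a fixed block. Of 1099 values of 47 named regions and runs under the alternatives, 963 kept their direction and side of the threshold, 133 passed it and 3 turned sign. None passed as reported, so keeping the side means not passing, whatever the size. The smallest size was 0.03 on chromosome 1 from 160938395 to 160940169 (0.40 as reported). It was -0.04 on chromosome 17 from 71824655 to 71825988 (-0.36 as reported), but -0.41 on chromosome 14 from 103656593 to 103657888 (-0.80 as reported). The runs had only an exact permutation p, which cannot go under 0.1, so none of their values could pass. The tally also includes the settings within scan day 1, with 1 DR model array, so it is no measure of how firm the differences are. The share of higher regions among those with an unadjusted p under 0.05 in limma was 27.9% of 2535 regions as reported. With scan as a fixed block it was 60.7%, but of only 257 regions. Signal over background limits the weak probes: on DR model replicate 1, 77.6% of MeDIP spots stood well above background.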

Other observations

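Averaging by the median in place of the mean called a region that the mean did not rank highly. On chromosome 11 from 45384554 to 45386239, a region of 10 probes, the median log2 ratio was -0.10, -0.30 and -0.38 in the DR model and -0.95, -0.91 and -0.95 with the other formula, with the groups -0.68 ± 0.09 (SE) apart. Its adjusted p in limma was 0.022. The mean of the same probes differed by -0.20 (adjusted p = 0.313 in limma). The other region so called, on chromosome 1 from 241189513 to 241191195, was among the 12 leading higher ones. Its median ratio stood at -0.80, -0.85 and -0.70 in the DR model and at -0.05, 0.00 and -0.12 with the other formula. However, 3 of its 9 probes lacked a value on at least 1 of the 6 arrays. Over its 6 probes measured on all 6 arrays the mean ratio differed by 0.285 and the median probe difference was 0.30. The difference called with the median over its probes was 0.725. This setting was added after the data were seen.

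At a small share of single probes the input channel, taken by itself, differed clearly between the groups. The input signal lay apart by more than 1 on the log2 scale, without overlap, at 2512 of 163272 probes and by more than 2 at 404. The log2 ratio lay apart by more than 1 at 1104 of the same 163272 probes and by more than 2 at 3.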
